A study of Homo sapiens with 16 samples.

Results

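Chromatin accessibility was examined at the loci of 7 cell cycle genes, 5 inhibitors of cyclin-dependent kinases (CDKN1A, CDKN1B, CDKN1C, CDKN2A and CDKN2B) and the D cyclins CCND1 and CCND2. The members are the open regions that overlap a fixed hg19 window around each gene, with CDKN2A and CDKN2B in a shared window, and they number 45 of 97793 regions in all. The count table of experiment 6086 held 27 of them among 56949 regions, and that of experiment 6211 held 18 among 40844. Regions were assigned to a gene by their window only, since no gene annotation on hg19 was used here.

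The cells were Rh30, an alveolar rhabdomyosarcoma line, with an FKBP tag on the fusion transcription factor PAX3-FOXO1. They were treated with 500 nM dTAG47, a degrader that brings FKBP-tagged proteins to a ubiquitin ligase, or with DMSO. Experiment 6211 had 0.5, 1 and 2 h of dTAG47 and its own DMSO group, and experiment 6086 had 2, 4 and 24 h and its own DMSO group, with 2 ATAC-seq libraries in each of the 8 groups. All groups were tagged cells, so degradation of the fusion and other effects of dTAG47 cannot be told apart. The DMSO group of each experiment carries no time label and serves all times. Effects of dTAG47 and of hours in culture therefore cannot be told apart either, also between 24 and 2 h. How much PAX3-FOXO1 was left was not analysed here. ATAC-seq counts insertions of a transposase into open DNA. Libraries held 9934147 to 18275976 reads in regions in 6211 and 18038062 to 31308682 in 6086. Levels are CPM, the reads in a region relative to the TMM-scaled total of reads in regions of its library, and changes are log2 ratios of dTAG47 to DMSO from edgeR's quasi-likelihood test over all regions of an experiment, p-values being adjusted by the Benjamini-Hochberg method and called under 0.05. Since no label states that the 2 libraries of a group are separate cultures, the p-values reflect library-to-library spread, which may be technical.

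Cells pass from G1 into S phase when D cyclins, bound to CDK4 or CDK6, begin to phosphorylate the retinoblastoma protein. CDKN1A (p21), CDKN1B (p27) and CDKN1C (p57) form the CIP/KIP family, which binds complexes of cyclins with their kinases, and CDKN2B (p15) and the p16 product of CDKN2A are INK4 proteins, which bind CDK4 and CDK6 directly. CDKN2A also encodes ARF, which stabilises p53, and CDKN1A is a classical p53 target that rises as mouse myoblasts leave the cell cycle. PAX3-FOXO1 joins the DNA-binding part of PAX3 to the activation domain of FOXO1 and drives alveolar rhabdomyosarcoma.

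RefSeq promoter sequences, 250 bases before to 50 after a gene start on GRCh38.p14, were found for 4 of the 7 genes, with 5 starts in all. That build differs from the build of the count tables, so the sequences were not placed within the regions. The promoters of CDKN1A (chr6:36678464-36678763, plus strand) and CDKN1B (chr12:12717118-12717417, plus strand) are shown because the 3 called regions lay in the windows of these genes. That of CDKN2B (chr9:22009256-22009555, minus strand) is shown because no region of its window was called, which does not show that none changed. Capitals mark matches on either strand to the E-box form CAGCTG, a site type of myogenic factors, and to GTCACG, a core of paired-domain sites:
CDKN1A: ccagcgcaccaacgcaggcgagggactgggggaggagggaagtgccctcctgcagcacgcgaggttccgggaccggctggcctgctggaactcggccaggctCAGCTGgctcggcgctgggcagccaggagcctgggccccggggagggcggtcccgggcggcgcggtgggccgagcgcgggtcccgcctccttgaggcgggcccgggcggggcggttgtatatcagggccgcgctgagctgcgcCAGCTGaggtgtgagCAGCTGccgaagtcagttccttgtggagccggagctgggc
CDKN1B: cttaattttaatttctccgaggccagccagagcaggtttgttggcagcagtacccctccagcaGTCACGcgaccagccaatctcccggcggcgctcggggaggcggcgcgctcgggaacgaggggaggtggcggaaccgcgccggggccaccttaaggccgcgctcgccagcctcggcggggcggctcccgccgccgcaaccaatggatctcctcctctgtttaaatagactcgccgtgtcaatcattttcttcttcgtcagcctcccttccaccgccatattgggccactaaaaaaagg
CDKN2B: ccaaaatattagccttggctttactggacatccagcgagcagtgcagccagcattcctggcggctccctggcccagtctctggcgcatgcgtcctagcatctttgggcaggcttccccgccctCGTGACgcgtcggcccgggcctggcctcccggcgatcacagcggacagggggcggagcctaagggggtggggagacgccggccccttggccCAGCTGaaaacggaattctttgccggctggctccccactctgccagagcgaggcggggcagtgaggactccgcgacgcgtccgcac

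The CDKN1A sequence held 3 matches to CAGCTG and 0 to GTCACG, the CDKN1B sequence held 0 and 1, and the CDKN2B sequence held 1 of each. Neither of the CDKN2A starts, whose gene shares the CDKN2B window, held a match to CAGCTG or to GTCACG. Among all 35116 promoters of this length, 17.9% held CAGCTG and 9.02% held GTCACG on either strand. The AP-1 motif TGANTCA, found in 7.71% of promoters, and the paired homeodomain palindrome, found in 0.45%, were matched in none of the 5 member sequences. The general E-box CANNTG, which includes CAGCTG, was held by 68.7% of promoters and by 3 of the 5 member sequences (CDKN1A, CDKN2B and 1 of the CDKN2A starts). The GC box GGGCGG, held by 45.0% of promoters, was matched in 4 of the 5, all but that same CDKN2A start.

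In DMSO-treated cells the windows differed in how many open regions they held and how open these were. In experiment 6086 the windows of CDKN2A/CDKN2B and CCND2 held 6 regions each, CDKN1A held 5, CDKN1B and CCND1 held 4 each and CDKN1C held 2. In 6211, whose regions nearly all have the same width, the numbers were 4 for CDKN2A/CDKN2B, 3 for CCND2, 5 for CDKN1A, 3 for CDKN1B, 3 for CCND1 and 0 for CDKN1C, the imprinted CIP/KIP gene. All 45 regions passed the filter on low counts.

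Per length, the summed DMSO level of the regions in 6086 ran from 40.0 CPM per kb in the CDKN1A window (libraries at 38.4 and 41.5) through CCND2 at 38.2 (36.8 and 39.5), CCND1 at 36.7 (36.0 and 37.5), CDKN2A/CDKN2B at 29.2 (27.9 and 30.5) and CDKN1C at 27.6 (28.4 and 26.8) to CDKN1B at 23.4 (23.5 and 23.4). All windows were measured in the same 2 DMSO libraries, and these levels were not tested. Within each library CDKN1A was above CCND2 and CCND2 above CCND1, by less than the CDKN1A level differed between the libraries. CDKN2A/CDKN2B and CDKN1C changed order between the libraries, and CDKN1B was lowest in both. The region with the highest level per length in each window was chr6:36646102-36647331 for CDKN1A (46.6 CPM per kb), chr12:4429833-4430699 for CCND2 (65.4), chr11:69472821-69473232 for CCND1 (47.8), chr9:21974628-21975308 for CDKN2A/CDKN2B (42.4), chr11:2909693-2909876 for CDKN1C (28.2) and chr12:12878036-12878958 for CDKN1B (25.5). The CCND2 region straddles the distal edge of its window, with most of its length outside. It held 56.7 CPM of the 137.6 CPM summed in DMSO for CCND2, so the CCND2 level and sums rest largely on it. The other CCND2 regions of 6086 had 23.1 to 40.7 CPM per kb. In 6211 the highest levels per length were 102 CPM per kb at chr6:36646244-36646644 in the CDKN1A window and 87.7 CPM per kb at chr9:22009185-22009585 in that of CDKN2A/CDKN2B. In 6211 summed DMSO levels were 63.6 CPM per kb for CDKN1A, 58.1 for CDKN2A/CDKN2B, 39.4 for CCND2, 38.7 for CCND1 and 26.8 for CDKN1B. The order of windows thus differed from that in 6086, with CDKN2A/CDKN2B (libraries at 57.55 and 58.62) behind only CDKN1A. CCND2 and CCND1 changed order between the 6211 libraries. Levels of the 2 tables are not comparable, because the regions of 6086 had varying widths.

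Up to 4 h of dTAG47, no region at these loci changed past the threshold. At 0.5 h, 0 of 18 regions were called in 6211, where 0.00735% of all regions were. At 1 h the count was 0 of 18 against 2.69% of all regions, and at 2 h it was 0 of 18 against 6.89%. In 6086 it was 0 of 27 at 2 h against 5.22%, and 0 of 27 at 4 h against 7.19%. Regions with an unadjusted p under 0.05 numbered 0, 2 and 2 of 18 at 0.5, 1 and 2 h in 6211, and 2 and 3 of 27 at 2 and 4 h in 6086, against 6.67%, 16.4%, 20.3%, 16.4% and 17.7% of all regions. DESeq2 also called 0 at each of these times. So did the authors' deposited tables, but their values equalled those of that DESeq2 fit where both were compared, so they are no separate check. These 0 counts are not evidence of equal accessibility. The 95% intervals of single regions, not adjusted for their number, lay within a 1.5-fold change either way for 18, 17 and 17 of the 18 regions in 6211 and for 26 and 27 of the 27 in 6086.

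After 24 h, 2 of the 27 regions had risen (13.6% of all regions had) and 1 had fallen (18.6% of all), together 3 of 27 against 32.2% of all regions tested. All 3 belonged to the CIP/KIP windows, with 1 rise and the fall in that of CDKN1A and 1 rise in that of CDKN1B. Those windows held 11 of the 27 regions, so 3 of 11 were called there, against 32.2% of all regions tested. Between 24 and 2 h of dTAG47, compared directly, 1 region was higher (12.8% of all regions) and 1 lower (17.6% of all), together 2 of 27 against 30.4%. The median log2 change from DMSO of the 27 regions was 0.02 at 24 h, against -0.0031 over all 56945 regions. In the authors' deposited table for 24 h the count of member regions with an adjusted p under 0.05 was also 3. The 3 regions called here had adjusted p of 5.4e-05, 0.0099 and 0.041 there. These values equalled those of the DESeq2 fit made here, so that table is no separate check of it.

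The rise at CDKN1A was at chr6:36636834-36637325, a 492 bp region whose centre lies at -9637 bp from that of the highest region of the window. Its level was 10.7 and 10.8 CPM in DMSO, 13.1 and 10.4 CPM at 2 h, 11.9 and 12.9 CPM at 4 h and 16.2 and 17.3 CPM at 24 h. Both 24 h libraries lay above all other libraries of the experiment, while the 2 h libraries lay on either side of DMSO. The 24 h level was 16.7 ± 0.793 CPM against 10.7 ± 0.0408 CPM in DMSO (SD, n = 2), a 1.56-fold rise (log2 change 0.64, SE 0.10, adjusted p = 2.4e-06), which 97.5% of all regions fell below. It was the only member region with a change of 1.5-fold or more past the threshold. Between 2 and 24 h, tested directly, it rose by 0.51 on the log2 scale (SE 0.09, adjusted p = 5.7e-05), and its changes at 2 and 4 h, 0.13 and 0.21, had adjusted p of 0.61 and 0.30. No region of the 6211 table overlaps it.

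The fall was at chr6:36650134-36650909, centred at 3805 bp, on the other side of the highest region. It had 33.2 and 34.5 CPM in DMSO, 38.1 and 35.3 CPM at 2 h, 33.8 and 34.5 CPM at 4 h and 27.4 and 28.1 CPM at 24 h. The 24 h libraries were below all others, and the 2 h libraries were above both DMSO libraries. The 24 h level was 27.8 ± 0.481 CPM against 33.8 ± 0.879 CPM in DMSO (SD, n = 2), which is 18.1% lower (log2 change -0.29, SE 0.07, adjusted p = 0.00069). Of all regions, 17% had a lower 24 h change than this one. Compared directly with 2 h, the 24 h level differed by -0.40 on the log2 scale (SE 0.06, adjusted p = 6.3e-06). At 2 h the change was 0.12 in 6086 (adjusted p = 0.40) and 0.15 at the overlapping chr6:36650516-36650916 in 6211 (adjusted p = 0.44).

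**Figure D1:**
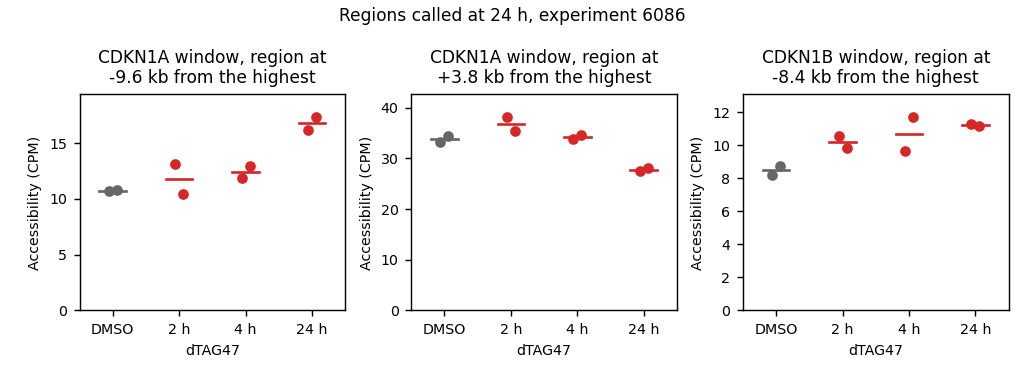
Accessibility in CPM (vertical axis, from 0) of the 3 regions called at 24 h, by group of experiment 6086 (horizontal axis). Points are single libraries and bars their mean; the 24 h libraries of the left panel are at 16.2 and 17.3 CPM, above all others, and those of the middle panel at 27.4 and 28.1 CPM, below all others.

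The remaining 3 regions of the CDKN1A window in 6086 did not pass the threshold at any time. The highest of them, chr6:36646102-36647331, had 58.8 and 55.2 CPM at 24 h, against 51.9 and 62.7 CPM in DMSO, so that the 24 h libraries lay between the DMSO libraries (log2 change -0.02, SE 0.07, adjusted p = 0.87). Thus at 24 h the window held a region that rose and a region that fell on opposite sides of a highest region whose interval ran from -0.15 to 0.11 on the log2 scale. In 6211 all 5 regions of the window had positive changes at 0.5 h (0.09 to 0.18) and at 1 h (0.10 to 0.22), and 4 of 5 at 2 h (-0.04 to 0.29), but none passed the threshold. These comparisons share the DMSO libraries, and the 5 regions were measured in the same libraries. Over all regions of 6211, 49.6%, 51.8% and 50.7% had positive changes at 0.5, 1 and 2 h. The lowest p was at chr6:36634874-36635274, with 36.3 and 33.9 CPM at 2 h against 30.0 and 27.4 CPM in DMSO cells (log2 change 0.29, SE 0.10, adjusted p = 0.10). The overlapping chr6:36634716-36635286 in 6086 had a 2 h change of 0.04 (SE 0.08, adjusted p = 0.85), with 26.1 and 23.4 CPM at 2 h around 24.1 and 24.0 CPM in DMSO. At chr6:36646244-36646644 the 1 h libraries of 6211 had 44.7 and 46.5 CPM, while the DMSO libraries were far apart at 35.6 and 46.0 CPM (log2 change 0.17, adjusted p = 0.44).

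**Figure D2:**
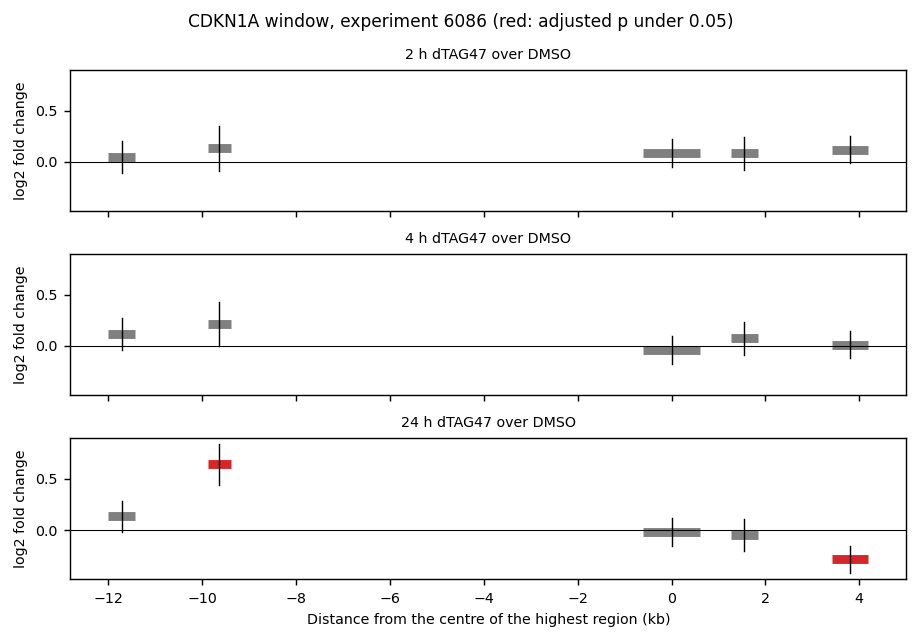
The CDKN1A window in experiment 6086, with the log2 fold change of dTAG47 over DMSO (vertical axis) against the distance in kb from the centre of the region with the highest DMSO level per length (horizontal axis), at 2, 4 and 24 h. Bars are regions drawn to their width and thin lines are 95% intervals; the 2 red regions, at 0.64 and -0.29 in the 24 h panel, passed the threshold.

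At CDKN1B, the gene of the CIP/KIP inhibitor p27, 1 of 4 regions in 6086 rose. The region chr12:12869894-12870337 had 8.23 and 8.76 CPM in DMSO, 10.6 and 9.83 CPM at 2 h, 9.63 and 11.7 CPM at 4 h and 11.3 and 11.2 CPM at 24 h. All 6 treated libraries lay above both DMSO libraries. Against DMSO, at 8.50 ± 0.373 CPM, the 24 h level of 11.2 ± 0.0897 CPM (SD, n = 2) was 1.32-fold higher (log2 change 0.40, SE 0.11, adjusted p = 0.0031). Of all regions, 92.4% had a lower 24 h change than this one. Its changes at 2 and 4 h were 0.26 (adjusted p = 0.22) and 0.33 (adjusted p = 0.070), and 24 h exceeded 2 h by 0.14 (adjusted p = 0.32), so an increase after 2 h was not shown. The overlapping chr12:12869947-12870347 in 6211 had positive changes of 0.24, 0.24 and 0.14 at 0.5, 1 and 2 h, none past the threshold (adjusted p = 0.85, 0.45 and 0.68). Its 2 h libraries were at 15.0 and 10.9 CPM and its DMSO libraries at 10.5 and 13.4 CPM, so these groups overlapped.

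The narrow neighbour chr12:12870479-12870580, 102 bp wide, had the most negative 2 h change of all members, with 1.45 and 1.65 CPM at 2 h against 2.58 and 1.99 CPM in DMSO cells (log2 change -0.53, SE 0.22, adjusted p = 0.20). It rests on 35 and 39 reads at 2 h and 46 and 51 reads in DMSO, and its 95% interval ran from -0.98 to -0.08. The widest region of the CDKN1B window, chr12:12878036-12878958, had 25.3 and 23.6 CPM at 24 h against 23.6 and 23.5 CPM in DMSO cells (log2 change 0.05, adjusted p = 0.65). Its 2 h libraries were at 20.1 and 23.1 CPM, both below DMSO (log2 change -0.13, adjusted p = 0.47).

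Neither region in the CDKN1C window, which only 6086 held, passed the threshold. At chr11:2898712-2898994 the levels were 7.62 and 7.78 CPM in DMSO, 7.80 and 8.27 CPM at 2 h, 9.20 and 8.95 CPM at 4 h and 6.81 and 7.00 CPM at 24 h. The 4 h libraries were above all others and the 24 h libraries below all others, with log2 changes from DMSO of 0.23 (SE 0.11, adjusted p = 0.25) and -0.16 (SE 0.11, adjusted p = 0.30). At chr11:2909693-2909876 the changes were 0.04, -0.09 and 0.04 at 2, 4 and 24 h, and its DMSO libraries, at 5.66 and 4.73 CPM, lay further apart than those of any treated group.

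**Figure D3:**
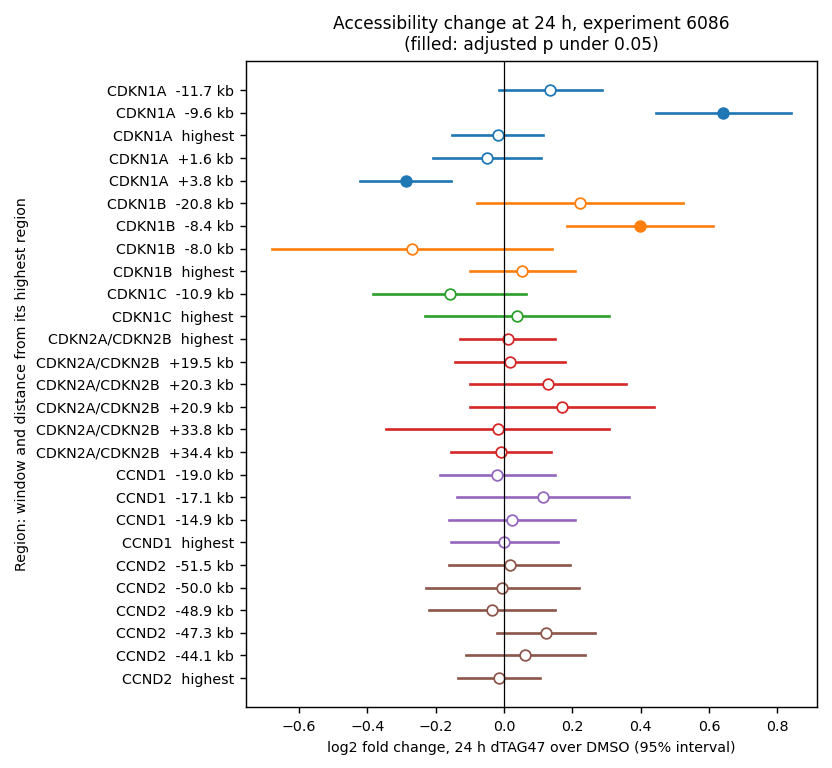
Log2 fold change of 24 h dTAG47 over DMSO (horizontal axis) with 95% intervals for the 27 member regions of experiment 6086, by window and distance in kb from the region of that window with the highest DMSO level per length (vertical axis). The 3 filled points passed the threshold, at 0.64 and -0.29 in the CDKN1A window and 0.40 in the CDKN1B window, and the 16 regions of the INK4 and D cyclin windows lie between -0.03 and 0.17.

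No region of the CDKN2A/CDKN2B window, which holds the INK4 genes and ARF, passed the threshold at any time. The 6 regions of 6086 had 24 h changes of -0.02 to 0.17, and their 95% intervals at 24 h together spanned -0.34 to 0.44. The highest region per length, chr9:21974628-21975308, had 29.0 and 28.8 CPM in DMSO, 30.0 and 27.3 CPM at 2 h, 25.7 and 26.5 CPM at 4 h and 28.5 and 29.7 CPM at 24 h. Its 4 h libraries were the lowest of the 8 (log2 change -0.15, SE 0.07, adjusted p = 0.28). The 24 h libraries lay on either side of the DMSO libraries (log2 change 0.01, adjusted p = 0.93), and 24 h was not tested against 4 h. In 6211 the lowest p in this window was at chr9:21994926-21995631 after 0.5 h, with 14.4 and 15.5 CPM against 18.9 and 16.5 CPM in DMSO cells (log2 change -0.25, SE 0.13, adjusted p = 0.77). All 4 regions there had negative 0.5 h changes, from -0.25 to -0.02, but at 2 h these were split between 2 positive and 2 negative. Over all regions of 6211, 49.6% had positive changes at 0.5 h and 50.7% at 2 h. The highest region per length in 6211, chr9:22009185-22009585, had 33.5 and 37.4 CPM at 2 h around 35.3 and 35.1 CPM in DMSO cells (log2 change 0.01, adjusted p = 0.97).

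None of the D cyclin regions passed the threshold either. At 24 h the 4 CCND1 and 6 CCND2 regions of 6086 had changes of -0.03 to 0.12, and all 10 intervals lay within a 1.5-fold change, together spanning -0.23 to 0.37. The lowest p was at chr12:4382597-4383300 in the CCND2 window, with 30.5 and 32.0 CPM at 24 h against 28.2 and 29.0 CPM in DMSO cells (log2 change 0.12, SE 0.07, adjusted p = 0.20). The highest region of that window, chr12:4429833-4430699, had 59.2 and 53.5 CPM at 24 h, around 54.3 and 59.1 CPM in DMSO cells (log2 change -0.01, adjusted p = 0.88). For CCND1, the highest region per length, chr11:69472821-69473232, had 19.7 CPM in both 24 h libraries, against 19.6 and 19.8 CPM in DMSO cells (log2 change 0.00062, SE 0.08).

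Among the early times, chr12:4378768-4379168 in the CCND2 window had the most positive change of all members in 6211. It had 8.58 and 9.51 CPM in DMSO, 11.2 and 10.1 CPM at 0.5 h, 12.2 and 11.2 CPM at 1 h and 9.39 and 9.48 CPM at 2 h. The 1 h libraries were above both DMSO libraries and the 2 h libraries fell between them (log2 changes 0.37 at 1 h, SE 0.14, adjusted p = 0.18, and 0.07 at 2 h, adjusted p = 0.85). The highest CCND2 region per length in 6211, chr12:4382734-4383134, had 23.9 and 27.2 CPM at 1 h against 23.3 and 22.2 CPM in DMSO cells (log2 change 0.17, adjusted p = 0.49). At chr11:69472813-69473213 in the CCND1 window the 2 h libraries had 20.6 and 21.7 CPM against 18.5 and 19.1 CPM in DMSO cells (log2 change 0.17, adjusted p = 0.43). The most negative change of all members in 6211 was also in the CCND1 window, at chr11:69457991-69458391 after 2 h (log2 change -0.32, SE 0.17, adjusted p = 0.28). Its 2 h library B had 7.89 CPM, while library A lay just below the DMSO libraries, which had 12.1 and 13.1 CPM.

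Accessibility was also summed over the regions of each window. In 6086 the CDKN1A sum was 139.6 and 151.0 CPM in DMSO, 160.4 and 149.6 CPM at 2 h, 146.0 and 152.5 CPM at 4 h and 147.0 and 146.2 CPM at 24 h, so the rise and the fall of single regions left the 24 h sums within the DMSO range. In 6211 it was 125.2 and 130.0 CPM in DMSO, 140.0 and 137.9 CPM at 0.5 h, 139.8 and 144.7 CPM at 1 h and 143.6 and 138.6 CPM at 2 h, each treated library above both DMSO libraries. All these times share the same DMSO libraries. The CDKN1B sum in 6086 was 42.6 and 41.0 CPM at 24 h against 38.1 and 37.9 CPM in DMSO. For CCND1 it was 58.0 and 57.4 CPM at 24 h against 55.8 and 58.2 CPM, and for CCND2 144 and 138 CPM against 133 and 143 CPM, with the groups overlapping in both windows. In 6211 the CCND2 sum at 1 h was 52.7 and 55.5 CPM, above 47.5 and 47.3 CPM in DMSO, while at 2 h it was 53.9 and 42.9 CPM, on either side of DMSO. The CDKN2A/CDKN2B sum in 6211 was 102.9 and 104.0 CPM at 0.5 h, below 109.9 and 111.9 CPM in DMSO. No test was made on sums, since their members were chosen with earlier results known. Groups of 2 libraries often fail to overlap. Of all 40844 single regions of 6211, 6892, 8528 and 10225 had both dTAG47 libraries above both DMSO libraries at 0.5, 1 and 2 h. Both lay below in 7859, 8696 and 9706. At 24 h in 6086 both lay above in 16795 and below in 18459 of 56945 regions. Such shares were not computed for sums.

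**Figure D4:**
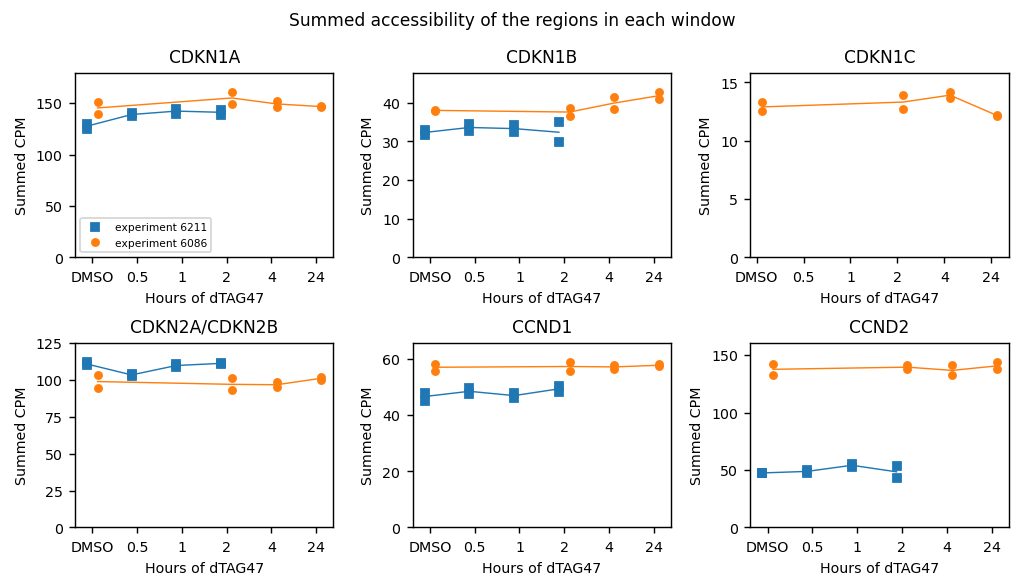
Summed CPM of the member regions of each window (vertical axes, from 0) by group (horizontal axis, DMSO and hours of dTAG47), with squares for libraries of experiment 6211, circles for those of 6086 and lines through the means. The experiments have different regions, so only groups of the same experiment compare; the CDKN1A sums of 6211 are 125.2 and 130.0 CPM in DMSO and 137.9 to 144.7 CPM after dTAG47.

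The 2 h time was measured in both experiments with separate DMSO groups. All 18 regions of 6211 overlapped a region of 6086, and 11 of the 27 regions of 6086 had no partner. Of the 18 overlapping pairs, 10 had 2 h changes of the same sign in both experiments. The share of same signs over all matched regions was not computed. For the CCND1 pair chr11:69453773-69454249 in 6086 and chr11:69453719-69454119 in 6211 the libraries pointed in opposite directions. In 6086 the 2 h libraries had 15.5 and 14.3 CPM, below 16.2 and 17.1 CPM in DMSO cells (log2 change -0.16, SE 0.09, adjusted p = 0.36). In 6211 they had 17.8 and 18.7 CPM, above 14.6 and 15.8 CPM in DMSO cells (log2 change 0.26, SE 0.12, adjusted p = 0.23). Over the 29639 regions matched by 50% reciprocal overlap, 12 of the pairs included, the test of the difference between the 2 h changes called 0 regions, with 6.19% of them and 1 of the 12 pairs, this one, at an unadjusted p under 0.05. DESeq2 was not run on this test.

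**Figure D5:**
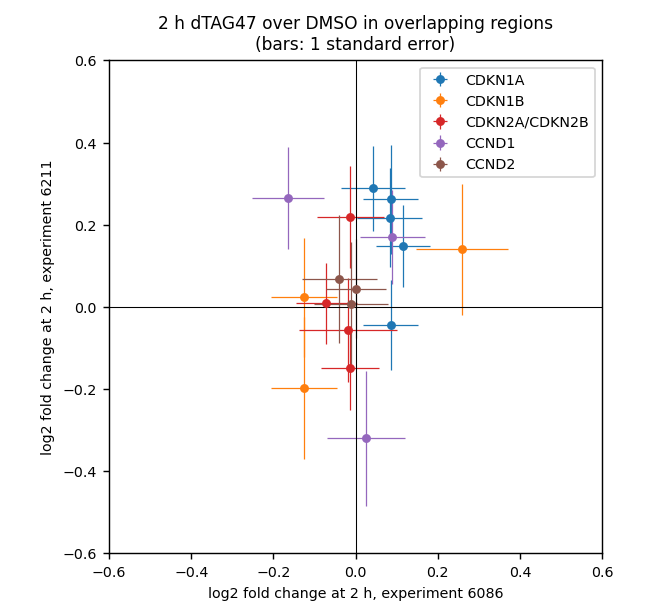
Log2 fold change of 2 h dTAG47 over DMSO in experiment 6211 (vertical axis) against that in experiment 6086 (horizontal axis) for the 18 overlapping pairs of regions, coloured by window, with bars of 1 standard error. Points lie on both sides of 0 in each experiment, 10 of 18 pairs have the same sign, and a CCND1 pair at -0.16 in 6086 and 0.26 in 6211 has changes of opposite sign.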

How the data were processed

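ATAC-seq reads had been counted per open region by the authors, and the deposited tables hold these raw counts, as whole numbers, for 8 libraries per experiment. The submitters' processing notes name hg19 and dm3 as builds and Trimmomatic 0.32, Bowtie2, Genrich 0.6.1, deepTools, DiffBind and DESeq2 as tools, with no role or order. No source used here says whether reads were shifted for the transposase or how duplicates were handled. Per the file headers, the deposited comparison tables give log2 fold changes and adjusted p-values per region; values from them are named as the authors'.

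Columns were grouped by the treatment and hours they carry; library letters could not be tied to replicate numbers. The edgeR 4.0.16 quasi-likelihood test (R 4.3.3; TMM, filterByExpr, a mean per group) was fitted to each experiment's 8 libraries together, leaving 4 residual degrees of freedom, and was checked on simulated counts first. In that check of 2 h against DMSO, 1.25-fold changes were recovered in 10% of cases in 6211 and 38% in 6086. For 1.5-fold changes the shares were 76% and 86%. False calls numbered 2 among 40644 unchanged regions in 6211 and 18 among 56745 in 6086. Simulated counts had the same spread in all regions, unlike real ones. An SE is the size of the log2 change divided by the square root of F. TMM scaling hides a change shared by all regions. Named regions are, per window and table, that with the highest DMSO level per length, that with the lowest p against DMSO, and every called region with at least a 1.5-fold change. The regions chr6:36650134-36650909 and chr12:12870479-12870580, the overlapping partners of named regions and those gained when a library was left out were named after their values were seen. Members and lists were chosen with earlier results of these data known. A list of other cell cycle genes was not analysed here, for want of an hg19 annotation. The alternatives were DESeq2 1.42.0, library size only, median-ratio size factors, no filter, only the groups compared, a replicate block and leaving out each library. The test of the difference between experiments was chosen after seeing the data. Figures were drawn with matplotlib 3.10.9.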

Additional observations from a re-analysis of the deposited data

Results flagged for a closer look

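The 2 h change at the CCND1 pair chr11:69453773-69454249 (6086) and chr11:69453719-69454119 (6211) stood out because both dTAG47 libraries lay below both DMSO libraries in 6086 and above both in 6211. The log2 change in 6086 minus that in 6211 was -0.41 (SE 0.14), and an edgeR test of this difference, added after the data were seen, gave an adjusted p of 0.73 over 29639 matched regions (unadjusted p = 0.00629). The regions of the pair differ in width and borders, and the part of that in the difference was not tested.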

How the results depend on the processing

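The counts of called regions at 24 h, 2 higher and 1 lower, held under DESeq2, library size only, median-ratio size factors, no filter, only the groups compared, the replicate block by library letter and leaving out each of the 8 libraries. Over these 14 settings the log2 change ran from 0.59 to 0.69 at chr6:36636834-36637325 (adjusted p up to 0.00018), from -0.31 to -0.25 at chr6:36650134-36650909 (up to 0.015) and from 0.36 to 0.46 at chr12:12869894-12870337 (up to 0.041). Leaving out 1 library gave from 0 to 1 higher regions at 1 h in 6211 and at 2 and 4 h in 6086, from 0 to 1 lower at 2 h in 6211, and from 1 to 2 higher between 24 and 2 h. The calls so gained were chr6:36646244-36646644 at 1 h without DMSO library B, chr6:36646102-36647331 at 2 h without DMSO library B, chr12:12869894-12870337 at 4 h without 4 h library A, chr11:69457991-69458391 at 2 h without 2 h library A, and, between 24 and 2 h, chr12:12878036-12878958 without either DMSO library or 2 h library B and chr9:21995677-21996038 without 2 h library A; the cause was not tested. The sign turned when 1 library was left out at chr6:36646244-36646644 at 1 h (-0.0175 to 0.357), chr6:36646102-36647331 at 2 h (-0.0346 to 0.239) and chr11:2909693-2909876 at 4 h (-0.233 to 0.0281). In each such fit the lone library is assumed to vary like the other groups.

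Whether the letters pair libraries is not known. The difference between libraries A and B correlated between groups by -0.137 to 0.211 over regions, which neither shows nor excludes a pairing of some groups. The replicate block left 2 higher and 1 lower region at 24 h, with log2 changes of 0.64 (adjusted p = 9.2e-06), 0.40 (0.0042) and -0.29 (0.0014). It changed no call in any comparison. Depth limits the narrowest regions, down to 35 reads in a library.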

Other observations

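The count tables drew the same stretch with different borders. The CDKN1A region chr6:36646102-36647331 of 6086 covers the whole of chr6:36646244-36646644 and most of chr6:36646996-36647396 in 6211, whose 2 h changes were -0.04 (SE 0.11) and 0.26 (SE 0.13), against 0.09 (SE 0.07) for the region that spans both. In the CDKN1B window chr12:12878036-12878958 of 6086, with a 2 h change of -0.13 (SE 0.08), overlaps chr12:12878214-12878614 and chr12:12878625-12879025 of 6211, with changes of -0.20 (SE 0.17) and 0.02 (SE 0.14). None of these values passed the threshold.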
